A study of Mus musculus with 10 samples.

Results

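The genes described here encode the axoneme of motile cilia, the microtubule scaffold and motors that make a cilium beat. They are the protein-coding genes of the deposited table whose GENCODE symbol begins with Dnah, Dnai, Dnaaf, Cfap, Rsph or Tekt followed by a digit, together with Foxj1, Ccdc39 and Ccdc40. The rule found 66 genes of the 47333 in the table, and 64 of them passed the filter on low counts that left 18024 genes for testing. The 2 that did not pass were Cfap97d1, with 3 counts over all mice, and Rsph6a, with 2. No symbol matched the Dnai pattern, because the annotation lists the dynein intermediate chain genes under older names such as Dnaic2.

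RNA was measured by sequencing in the whole right middle lobe of the lung from 10 C57BL/6J mice that were 12 weeks old and had received no treatment. Of these, 5 (1 male and 4 females) were labelled KO for Bpifb1, the gene of a protein secreted onto the airway surface, and 5 (2 males and 3 females) were wild type (WT). How the deletion was made, and in which cells it acts, is not given in the sources used here. Replicate numbers only name the mice and pair none of them. A lobe holds few ciliated cells among many others, so fewer ciliated cells and less RNA per ciliated cell cannot be told apart in any value below.

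A motile axoneme is a ring of doublet microtubules around a central pair. Outer and inner dynein arms, built on very large heavy chain proteins, walk along the neighbouring doublet and bend the cilium, while radial spokes and the central pair coordinate the arms and tektins and other inner proteins stiffen the doublets. Dynein arms are folded in the cytoplasm by assembly factors before transport. In the airway these proteins are made by multiciliated cells, where the forkhead factor Foxj1 and RFX factors switch on their genes and where beating cilia move the mucus layer.

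RFX factors bind a site with inverted repeats, and promoters of axoneme genes are shown here because letters matching that site are the sequence feature searched for among genes that are switched on together. RefSeq promoters of GRCm38.p6, reaching from 250 bases before to 50 bases after the start of transcription, were matched by symbol to 53 of the 66 genes. The RFX motif GTTGCCA, 1 arm of such a site, on either strand, stood in the promoters of 12 of these 53 genes (22.6%), against 5.02% of all 27025 genes in the promoter table. The full RFX palindrome of both arms, which can overlap the single arm, was found in 1 of the 53 genes (1.89%), Cfap298, against 0.529% of all genes. The forkhead motif TGTTTAC was found in 4 genes (7.55%), against 4.05%. These matches are letters in a window and were not tested as binding sites. The stretches below lie before the RefSeq start of transcription and are written 5′ to 3′ on the strand of the gene. In GENCODE the genes Cfap298, Dnah7b and Tekt1 start further upstream, at 90935114, 46066315 and 72362442. By those coordinates their stretches lie inside the gene, and those of Cfap161 and Cfap44 do so in part. Capitals mark GTTGCCA or, where it is on the opposite strand, TGGCAAC, and in Cfap298 also the palindrome GTTGCCCGGGCAAC.

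Cfap298 (dynein assembly; chr16:90934884-90935057, minus strand): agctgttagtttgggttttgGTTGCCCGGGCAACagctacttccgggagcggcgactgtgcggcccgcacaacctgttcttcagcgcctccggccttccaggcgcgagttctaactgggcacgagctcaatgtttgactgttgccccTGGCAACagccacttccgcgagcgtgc
Cfap161 (doublet inner protein; chr7:83794853-83794926, minus strand): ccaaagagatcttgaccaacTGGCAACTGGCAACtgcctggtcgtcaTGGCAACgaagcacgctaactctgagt
Cfap44 (tether of an inner arm; chr16:44394649-44394798, plus strand): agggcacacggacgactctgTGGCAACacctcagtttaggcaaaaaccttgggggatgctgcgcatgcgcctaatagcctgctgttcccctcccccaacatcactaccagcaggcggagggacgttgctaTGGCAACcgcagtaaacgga
Cfap20 (doublet junction; chr8:95434938-95434984, minus strand): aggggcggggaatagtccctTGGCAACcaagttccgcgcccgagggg
Dnah7b (inner arm heavy chain; chr1:46066670-46066716, plus strand): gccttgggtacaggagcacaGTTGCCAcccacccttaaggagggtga
Tekt1 (tektin; chr11:72361883-72361917, minus strand): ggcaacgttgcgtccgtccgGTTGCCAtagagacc

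The motif appeared 3 times in the stretch of Cfap161 and 2 times in that of Cfap44, and the genes shown come from different structures of the axoneme. Their log2 fold changes, KO against WT, were -0.15 for Cfap298, -0.05 for Cfap161, 0.18 for Cfap44, -0.03 for Cfap20, 0.21 for Dnah7b and -0.09 for Tekt1, with an unadjusted p under 0.05 for Cfap44 alone.

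Libraries held 21357424 to 28321294 counts. In the KO mice Bpifb1 read 0.217 to 1.26 CPM, that is counts per 1000000 counts of the library after TMM scaling (trimmed mean of M values), against 28.1 to 79.6 CPM in WT mice, so the genotype labels hold for all 10. KO replicate 5, labelled female, read 1.78 CPM of Xist, the transcript of the inactive X chromosome, where the other female mice read 273.7 to 407 CPM and the males 1.29 to 1.73 CPM. Its label was kept in the fit, so fits of females alone hold it too. Labelled sex was a covariate of the genotype fit, and values without this mouse are given beside some of the results only.

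None of the 64 tested axoneme genes differed between KO and WT lungs at an adjusted p under 0.05 (quasi-likelihood test of edgeR, sex as covariate, Benjamini-Hochberg over all tested genes), where 0.0222% of all tested genes did and 0.00555% were higher in KO mice at that threshold. The DESeq2 Wald test on the same genes called 2 of them, Dnah10 and Foxj1, both higher in KO mice. That test called 346 of all 18024 tested genes. Limma-voom called 0 of the 64 axoneme genes, and 2 of all tested genes. The fitted log2 fold changes, KO against WT, ran from -0.27 in Rsph14 to 0.36 in Dnah7a, with 39 above 0 and 25 below. Their median was 0.03, beside -0.0027 over all tested genes, and it lay between 0.0096 (without WT replicate 3) and 0.066 (without WT replicate 5) when each mouse was left out in turn.

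At an unadjusted p under 0.05, 15 axoneme genes (23.4%) were higher in KO mice and 2, Rsph9 and Dnaaf2, were lower, where 8.92% of all tested genes were higher and 8.04% lower. The total of 17 was 6 without KO replicate 1, 11 without KO replicate 2, 10 without KO replicate 5, 11 without WT replicate 1 and 8 in the females alone, KO replicate 5 among them by its label. Over all tested genes the total was 3057 of 18024, and 2345 of 18132 without KO replicate 1. It was 2275 of 18107 without KO replicate 2, 2393 of 18094 without KO replicate 5 and 1875 of 18254 without WT replicate 1. In the females alone it was 2506 of 18248. Of the 15 genes that were higher, 9 encode dynein heavy chains. The CPM ranges of the groups did not overlap for 3 axoneme genes, Dnah10, Dnah11 and Cfap65, each higher in KO mice, where 1.88% of all tested genes had ranges that did not overlap and 0.96% did so with the higher values in KO mice. The 95% intervals of the fold change lay within a 2-fold difference for all 64 genes and within 1.5-fold for 61, the exceptions being Dnah7a, Dnah7c and Tekt3.

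**Figure D1:**
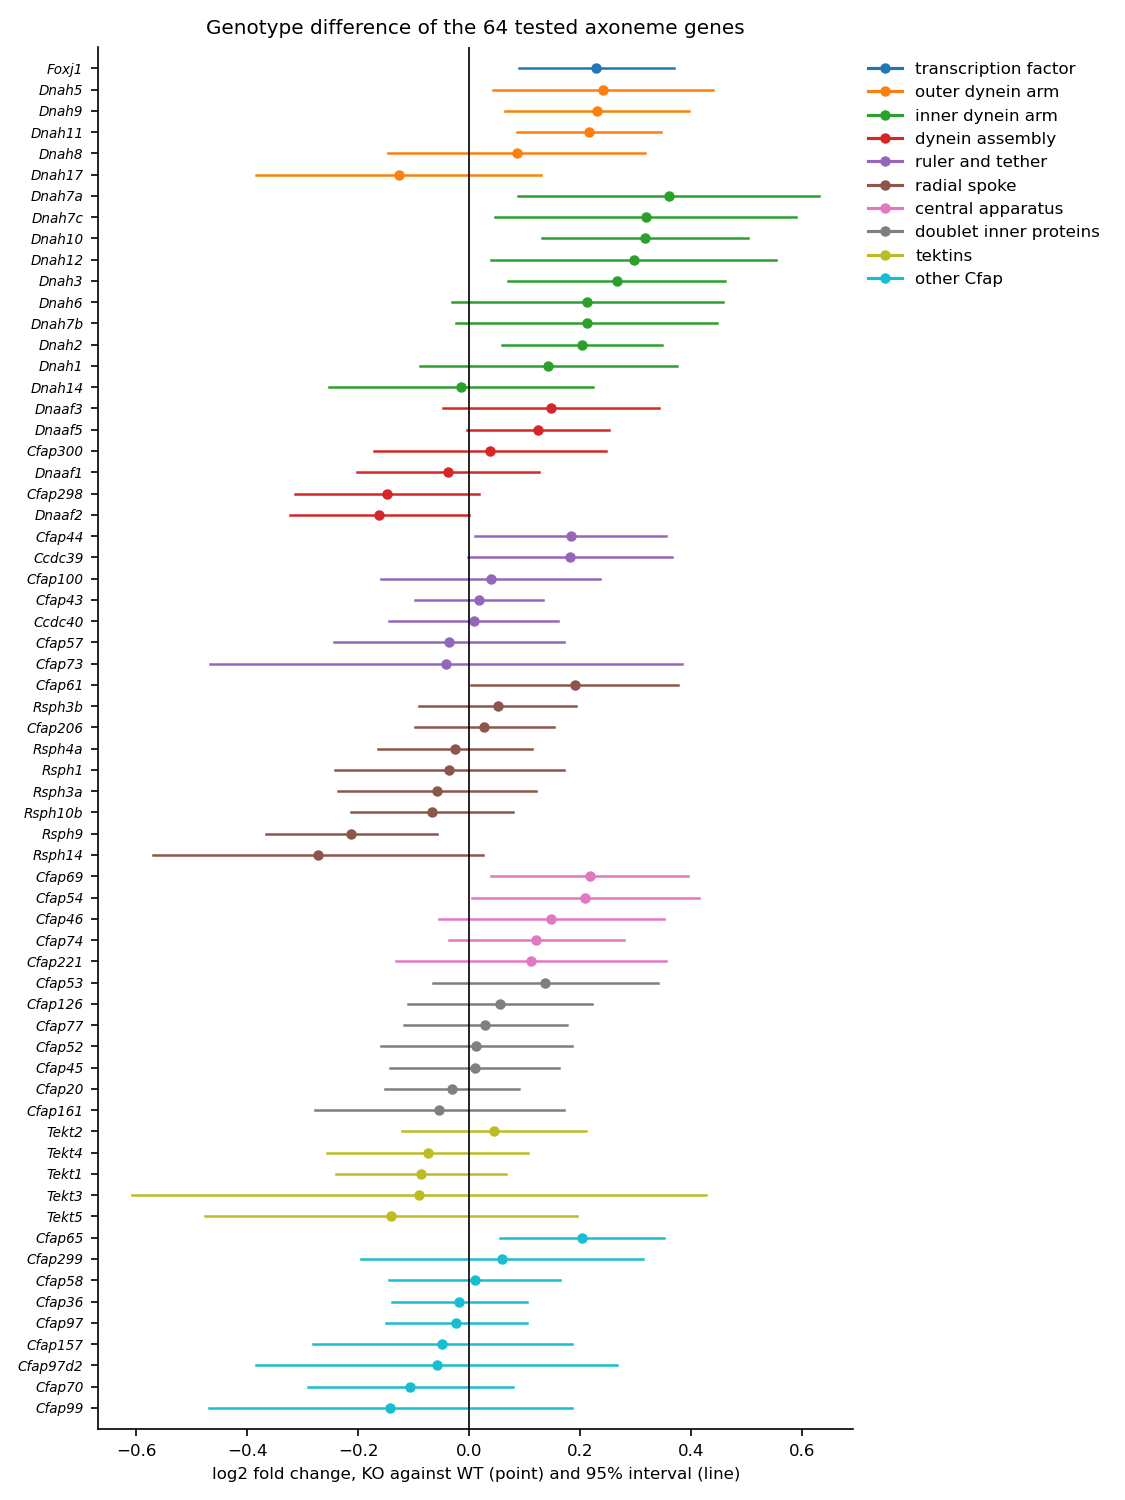
Fitted log2 fold change of KO against WT mice (point) with its 95% interval (line) for each of the 64 tested axoneme genes, coloured and ordered by role. Most heavy chain genes and all 5 central apparatus genes lie to the right of 0, and the tektin and radial spoke genes lie on both sides of it.

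Foxj1, the forkhead factor of motile ciliogenesis, lies on chromosome 11 (GRCm38, 116330704 to 116335399, minus strand). Per length of exon it was the most abundant of the 66 genes, at 53.4 ± 8.46 CPM per kilobase of exon in KO and 46.8 ± 2.96 in WT mice (SD, n = 5 each). Its CPM in KO replicates 1 to 5 was 179, 125, 134, 129 and 133, and in WT replicates 1 to 5 it was 120, 136, 120, 116 and 122. KO replicate 1, the mouse of that group labelled male, stood well above the others, and WT replicate 2, also labelled male, exceeded 4 of the 5 KO mice, so the ranges overlapped. The log2 fold change was 0.23 (SE 0.065, unadjusted p 0.00357, adjusted p 0.151 by edgeR) and 0.13 without KO replicate 1. The DESeq2 Wald test gave 0.23 with an adjusted p of 0.0495, the lowest of 19 alternatives, of which the highest was 0.402. Between the labelled sexes the log2 difference of Foxj1, male against female, was 0.25 (SE 0.07, adjusted p 0.116 by edgeR). It was 0.25 without KO replicate 5, whose label its Xist level goes against, and 0.11 without KO replicate 1.

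The outer arm heavy chains Dnah5, Dnah9 and Dnah11 drive the outer row of motors in respiratory cilia, while Dnah8 and Dnah17 are best known from sperm flagella. Of these 5 genes, 3 were higher in KO mice at an unadjusted p under 0.05 and 0 lower, with a median log2 fold change of 0.22. At that threshold 8.92% of all tested genes were higher, and 43.0% of other protein-coding genes of 12000 exon bases or more. Dnah11 lies on chromosome 12 (117877982 to 118199043, minus strand), and 4.4% of its exon length overlaps the exons of Cdca7l on the opposite strand. It measured 22.9, 22.3, 20.1, 20.4 and 23.1 CPM in KO replicates 1 to 5 and 18.8, 19.7, 18.3, 18.4 and 19.2 CPM in WT replicates 1 to 5. Every KO mouse lay above every WT mouse. The log2 fold change of Dnah11 was 0.22 (SE 0.06, adjusted p 0.146 by edgeR), and it was 0.07 once each library was corrected for exon length, as described below.

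Dnah5 read 66.4, 56, 52.8, 48.3 and 65.2 CPM in the KO mice and 44.4, 49.3, 49.8, 46.8 and 57 CPM in the WT mice. KO replicates 1 and 5 were the highest, and the other KO mice lay within the WT range. The log2 fold changes were 0.24 for Dnah5 and 0.23 for Dnah9, with adjusted p of 0.226 and 0.193 by edgeR. The 2 sperm-associated chains read 0.09 for Dnah8 and -0.13 for Dnah17, both with an unadjusted p above 0.05, and Dnah8 had the lowest level per length of the tested axoneme genes, at 0.249 CPM per kilobase of exon.

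Inner arms set the shape of the beat. Of 10 inner arm heavy chain genes, 9 had a log2 fold change above 0, 6 of them at an unadjusted p under 0.05, where 8.92% of all tested genes and 43.0% of other long genes were higher, and the median was 0.24. Without KO replicate 1, and in the females alone, the 6 became 2, Dnah10 and Dnah2, and without KO replicate 2, KO replicate 5 or WT replicate 1 they became 4. Dnah10, which with Dnah2 forms the double-headed inner arm, lies on chromosome 5 (124725085 to 124834308, plus strand). It measured 38.2, 41.1, 35.4, 34.5 and 48 CPM in KO replicates 1 to 5 and 30.3, 33.4, 29.2, 32.4 and 32.3 CPM in WT replicates 1 to 5. The 5 KO mice all exceeded the WT mice, and KO replicate 5 was the highest. The log2 fold change was 0.32 (SE 0.086, unadjusted p 0.00276, adjusted p 0.144 by edgeR), ran from 0.24 to 0.36 as each mouse was left out, and was 0.16 with the correction for exon length. Its adjusted p ran from 0.0469 (DESeq2 Wald test) to 0.409 (correction for exon length) over 19 alternatives.

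The partner chain gene Dnah2 had a log2 fold change of 0.20 (adjusted p 0.19 by edgeR). Among the single-headed inner arms, Dnah7a had the largest fold change of all 64 genes, 0.36, from 6.85, 6.39, 5.11, 5.25 and 7.78 CPM in KO and 4.77, 4.86, 4.7, 5.56 and 4.73 CPM in WT mice. WT replicate 4 was above 2 of the KO mice, and the adjusted p was 0.202 by edgeR. Dnah7a, Dnah7b and Dnah7c are near-identical copies on chromosome 1, and estimated counts may be split among them, so their separate values are uncertain. Dnah3 (0.27) and Dnah6 (0.21), the most abundant inner arm chain per length, lay on the same side, and Dnah14 read -0.01.

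Over all 15 heavy chain genes, 13 had a log2 fold change above 0, 9 were higher in KO mice at an unadjusted p under 0.05 and 0 were lower, and the median was 0.22. Among the 49 other tested axoneme genes the median was 0.0094, with 6 higher and 2 lower. The count of 9 was 3 without KO replicate 1 and in the females alone, and 6 without KO replicate 5 or WT replicate 1. The median of the heavy chains was 0.19 without KO replicate 1 and 0.19 without KO replicate 5, and 0.27 without KO replicate 4 or WT replicate 5.

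Heavy chain genes are long, with 12009 to 26820 exon bases, and fold changes moved with exon length across the whole table. Among protein-coding genes outside the set, the median log2 fold change was -0.11 for 1093 genes under 1500 exon bases and 0.15 for 800 genes of 12000 bases or more, of which 90.8% were above 0 and 43.0% higher in KO mice at an unadjusted p under 0.05. The 16 axoneme genes of that length, the heavy chains and Cfap54, had a median of 0.21, and 62.5% were higher at that threshold. Across genes, Spearman's rho of exon length with the fold change was 0.584 over the 64 axoneme genes and 0.456 over 14842 other protein-coding genes, as a description, since genes of the same libraries are not independent. Within the 15 heavy chains rho was -0.614, so the longest of them did not have the largest fold changes.

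When each library was corrected by a smooth curve of counts on exon length, the median of the heavy chains was 0.07, with 12 of 15 above 0 and 0 at an unadjusted p under 0.05. The number of axoneme genes at that threshold then fell from 17 to 4, which were Cfap65, Dnaaf3, Dnaaf5 and Foxj1, all higher in KO mice. With this correction 1167 of 18024 tested genes were higher at the same threshold, and 2321 passed it in either direction. The log2 fold change of Foxj1, with 2623 exon bases, was 0.28 in that fit.

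**Figure D2:**
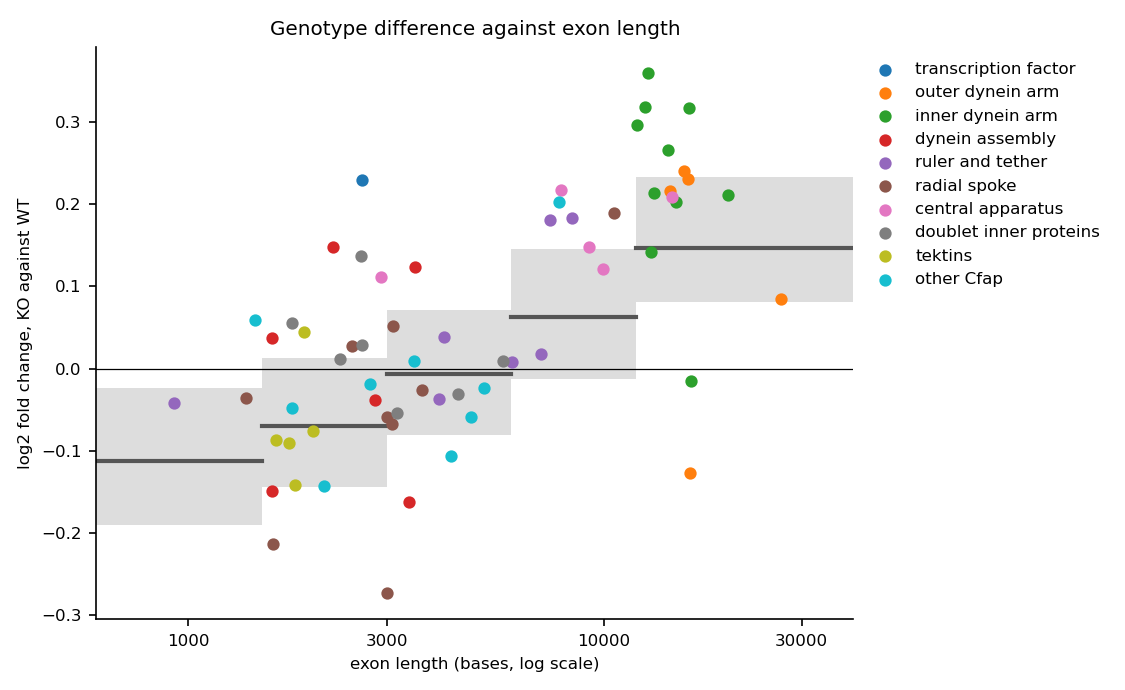
Log2 fold change of KO against WT mice against exon length on a log scale. Points are the 64 tested axoneme genes by role, and grey lines and boxes are the median and quartiles of the other protein-coding genes in 5 length ranges, the first of which holds all genes under 1500 bases. The grey medians climb from -0.11 to 0.15, and most heavy chain points lie above the grey median of the longest range.

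The same pattern was seen mouse by mouse. The median log2 deviation of the heavy chain genes from their means over the 10 mice was 0.195, 0.146, -0.005, -0.071 and 0.312 in KO replicates 1 to 5 and -0.107, -0.108, -0.144, -0.107 and 0.008 in WT replicates 1 to 5. KO replicates 1, 2 and 5 were high, KO replicates 3 and 4 were near 0 or below it, and WT replicate 5 was above both. The 800 other long genes deviated by 0.117, 0.101, -0.002, 0.004 and 0.133 in the KO and by -0.176, -0.133, 0.056, -0.009 and -0.076 in the WT mice. The same 3 KO mice were high in both sets of genes, while WT replicate 3 was the lowest for heavy chains and above 0 for other long genes. The part of library properties that act on long genes in the heavy chain values was not tested beyond the corrected fit.

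**Figure D3:**
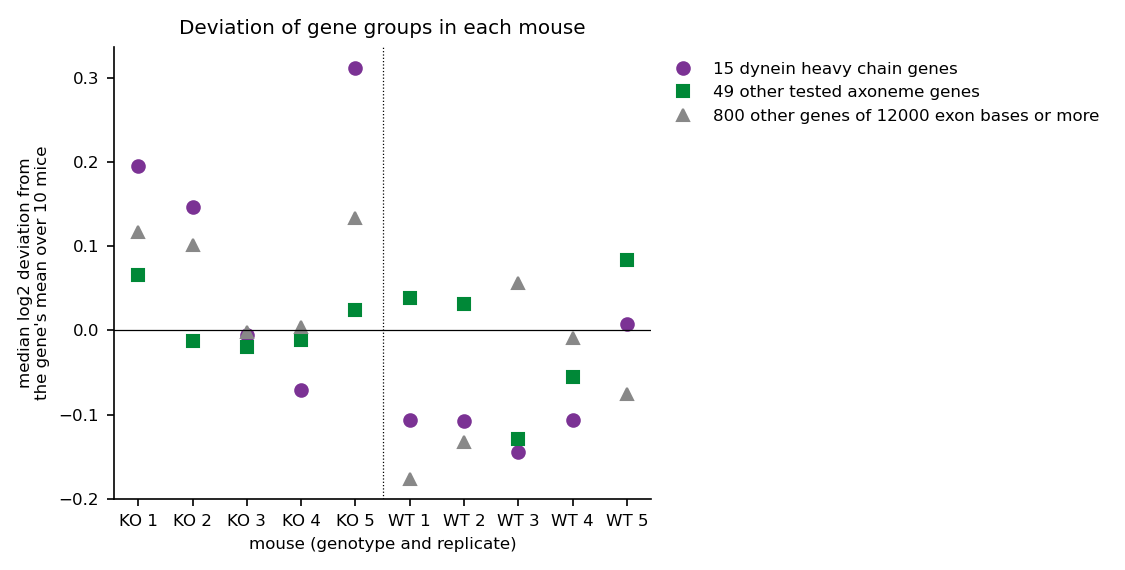
Median log2 deviation from each gene's mean over the 10 mice, for the 15 dynein heavy chain genes (circles), the 49 other tested axoneme genes (squares) and 800 other long genes (triangles), by mouse. Heavy chains are highest in KO replicates 5, 1 and 2, at 0.312, 0.195 and 0.146, where the other long genes are also high.

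Assembly factors fold dynein arms in the cytoplasm. Of 6 such genes, 0 were higher and 1 was lower at an unadjusted p under 0.05, and the median log2 fold change was -0.00085. The lower gene was Dnaaf2, at 15.6, 15.5, 17.3, 15.6 and 13.6 CPM in KO and 17.7, 19, 16.3, 17.3 and 16.8 CPM in WT mice. KO replicate 3 lay within the WT range and the other KO mice below it. Its log2 fold change was -0.16 (adjusted p 0.291 by edgeR). Exons of an antisense transcript, 9330151L19Rik, overlap 32.7% of the exon length of Dnaaf2, and since the counting strand is not given in the sources used here, reads of the pair may be mixed. Cfap298, the most abundant assembly gene per length at 18.7 CPM per kilobase of exon, had a fold change of -0.15, and Dnaaf5 had 0.12, both with an unadjusted p above 0.05.

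Ccdc39 and Ccdc40 form the molecular ruler that sets the repeat of the axoneme. Ccdc39 read 23.1, 21.4, 20.5, 17.1 and 18.7 CPM in KO and 15.7, 20.4, 17.8, 16.9 and 20 CPM in WT mice. The groups overlapped, with KO replicate 4 near the low end of the WT range. Its log2 fold change was 0.18 (adjusted p 0.3 by edgeR), and 16.9% of its exon length overlaps Ttc14 on the opposite strand. Ccdc40 read 40.5, 35.6, 35.4, 37.1 and 41.1 CPM in KO and 38.5, 35.7, 33.3, 36.9 and 42.9 CPM in WT mice, a log2 fold change of 0.0077. Its KO values lay wholly inside the WT range, and the sign of so small a value turned under several settings.

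Cfap43 and Cfap44 tether the double-headed inner arm to the doublet. Cfap43 varied little, at 79 to 92.4 CPM in KO and 80.5 to 85 CPM in WT mice, with a log2 fold change of 0.02. Cfap44 had 0.18 (unadjusted p 0.0385, adjusted p 0.269 by edgeR), and it was the 1 gene of 7 in the ruler and tether group with an unadjusted p under 0.05.

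Radial spokes carry signals from the central pair to the dynein arms. Of 9 tested spoke genes 1, Cfap61, was higher and 1, Rsph9, lower in KO mice at an unadjusted p under 0.05, and the median was -0.04. Rsph9, a spoke head protein on chromosome 17 (46122035 to 46144216, minus strand), measured 10.6, 12.1, 11.6, 11.5 and 11.8 CPM in KO replicates 1 to 5 and 14.4, 12.3, 11.1, 12.4 and 14.8 CPM in WT replicates 1 to 5. WT replicates 1 and 5 were well above the rest, and WT replicate 3 lay among the KO mice. The fitted log2 fold change was -0.21, with SE 0.072 and an adjusted p of 0.193 by edgeR. Rsph14 had the lowest fold change of the 64 genes, -0.27 (adjusted p 0.332), from 2.72 to 3.92 CPM in KO and 3.45 to 5.15 CPM in WT mice. Without WT replicate 5, the highest mouse, it was -0.15. Rsph1, another spoke head protein and the second most abundant axoneme gene per length at 20.4 CPM per kilobase of exon, read -0.04. Rsph3b, a stalk gene with 0.05, has a near-identical copy, Rsph3a, with which its counts may be shared.

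Central apparatus genes encode projections of the central pair. All 5 had log2 fold changes above 0, from 0.11 to 0.22, and 2, Cfap69 and Cfap54, had an unadjusted p under 0.05. Cfap69 measured 23.9, 23.5, 21.7, 19.2 and 23.6 CPM in KO and 17.7, 18.7, 17.9, 19.4 and 22.3 CPM in WT mice. The ranges overlapped through KO replicates 3 and 4 and WT replicates 4 and 5. Its log2 fold change was 0.22 (adjusted p 0.223 by edgeR), and 0.15 without KO replicate 1 or with the correction for exon length. Cfap46 had 0.15 (adjusted p 0.442). The median exon length of the 5 genes was 9224 bases, and non-member genes of 6000 to 12000 bases had a median fold change of 0.06. Of those non-member genes 70.3% were above 0, and 19.2% were higher in KO mice at an unadjusted p under 0.05.

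Proteins inside the doublets and the tektins, which run as filaments in the tubule wall, differed little. Among the 7 doublet genes 0 had an unadjusted p under 0.05, and the median was 0.01. Cfap53 read 10.7 CPM in KO replicate 1 and 7.48 to 8.38 CPM in the other KO mice, against 6.63 to 9.86 CPM in WT mice. Cfap20 of the inner junction read -0.03 and Cfap126 read 0.06. Of the 5 tektin genes 4 were below 0, with a median of -0.09 and 0 at an unadjusted p under 0.05. Tekt1 measured 15.9, 15.9, 15.9, 16.7 and 18.8 CPM in KO and 19.4, 15.7, 17, 16.5 and 18.4 CPM in WT mice, and the KO values lay inside the WT range.

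Among the 9 other tested Cfap genes, Cfap65 on chromosome 1 (74902071 to 74935599, minus strand) was the only 1 with an unadjusted p under 0.05. It read 52.9, 55.9, 49.5, 51.6 and 64.6 CPM in KO replicates 1 to 5 and 46.3, 49, 47.3, 46.6 and 49 CPM in WT replicates 1 to 5. Every KO mouse was above every WT mouse, KO replicate 3 by a small margin. The fitted log2 fold change was 0.20, with SE 0.069 and an adjusted p of 0.193 by edgeR. With the correction for exon length the log2 fold change of Cfap65 was 0.14. Cfap36, the most abundant gene of this group per length, read -0.02.

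**Figure D4:**
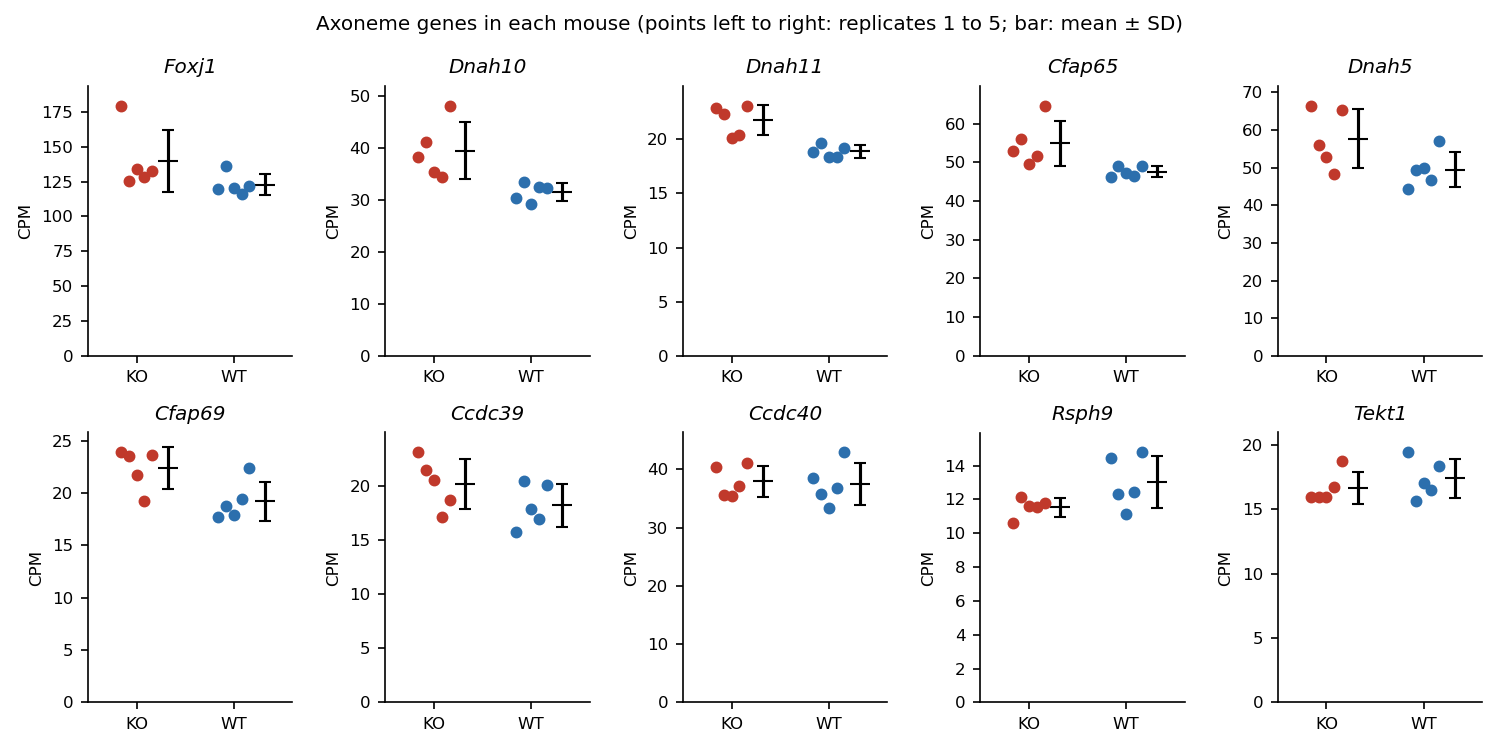
CPM of 10 axoneme genes in each mouse, with KO in red, WT in blue, replicates 1 to 5 from left to right, and mean ± SD as black bars. The groups do not overlap for Dnah10, Dnah11 and Cfap65. The high Foxj1 value of 179 CPM belongs to KO replicate 1.

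Between males and females as labelled, 0 of the 64 genes had an adjusted p under 0.05 by edgeR, where 0.583% of all tested genes did. At an unadjusted p under 0.05 there were 6, against 15.1% of all tested genes, 3 of them higher in males, and the number was 6 without KO replicate 5 and 3 without KO replicate 1. The DESeq2 Wald test called 1 axoneme gene, Foxj1, where it called 436 of all 18024 tested genes.

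To see whether axoneme genes vary together with their regulator, log2 CPM of each gene was set against that of Foxj1 over the 10 mice. Pearson's r was above 0 for 44 of 63 genes, with a median of 0.279, beside 0.0002 over all tested genes. No gene passed an adjusted p of 0.05 (permutation test, 100000 resamples, Benjamini-Hochberg over all tested genes), and no gene in the table did (0.0%). At an unadjusted p under 0.05 there were 6 axoneme genes (9.52%), all with a positive r, against 3.75% of all tested genes with a positive r. By Spearman's rho 6 genes were at that threshold, 5 of them with a positive rho, against 2.52% of all tested genes with a positive rho. Cfap97 had a negative rho of -0.770, with a permutation p of 0.0125, adjusted 0.961. Its r was -0.397, with a permutation p of 0.187, adjusted 0.635, and -0.678 without KO replicate 1 and WT replicate 4. KO replicate 1 and WT replicate 4 lay farthest from the median of Foxj1, and without both 30 of the 44 genes with a positive r still had one, 14 turned negative and 10 negative ones turned positive. Without KO replicate 1 alone, 2 genes had an unadjusted p under 0.05 and a positive r, where 2.28% of all tested genes did.

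The highest r was that of Cfap53, 0.749 (rho 0.491), with a permutation p of 0.0141, adjusted 0.564, rho p 0.154 and adjusted rho p 0.961, and it was 0.615 without those 2 mice. For Dnah2 r was 0.723 (rho 0.758), with permutation p of 0.00384 and 0.0148, adjusted 0.564 and 0.961, and r was 0.571 without the 2 mice. For Ccdc39 r was 0.709 (rho 0.758), with permutation p of 0.0113 and 0.0144, adjusted 0.564 and 0.961, and r was 0.489 without the 2 mice. At the other end, r was -0.593 for Rsph14, -0.573 for Rsph9 and -0.499 for Dnah14, with permutation p of 0.107, 0.0981 and 0.145 and adjusted p of 0.583, 0.578 and 0.608. Their rho was -0.370, -0.515 and -0.127, with permutation p of 0.298, 0.134 and 0.733 and adjusted p of 0.961, 0.961 and 0.979. Without the 2 mice r was -0.374, -0.453 and 0.0513 in the same order. With genotype and labelled sex removed by a linear model, r was 0.515 for Rsph9, the opposite sign, -0.0533 for Rsph14 and -0.431 for Dnah14. In those residuals r was 0.456 for Cfap53, 0.378 for Dnah2 and 0.385 for Ccdc39, the median r was 0.387, and 10 genes had a positive r at an unadjusted p under 0.05, where 5.57% of all tested genes did.

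Foxj1 was also set against 6 defining markers and the library total, a family of 7 relations of which 0 passed (lowest adjusted permutation p 0.977 for r and 0.947 for rho). For the ciliated cell marker Tppp3, r was 0.144 and rho 0.297 over 10 mice, with permutation p of 0.668 and 0.409, and r without the 2 mice was 0.147. That r was 0.522 on residuals after genotype and sex, 0.403 with the correction for exon length and 0.413 without WT replicate 1. When each of the other mice was left out, it ran from 0.0789 (without WT replicate 4) to 0.234 (without KO replicate 1).

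Pairwise, the 64 genes covaried weakly as a whole and strongly within some structures. The median r over 2016 pairs was 0.161, and 66.4% were above 0, where the median over all pairs of tested protein-coding genes was -0.001. Within the central apparatus the median r was 0.875, within the inner arm chains 0.714, and within the outer arm chains 0.213. Over all 15 heavy chains it was 0.666, and 0.385 once log2 CPM was corrected for exon length, while that of the central apparatus was 0.766 with the correction. These values are descriptions over the same 10 libraries, whose depth and length profile all genes share.

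**Figure D5:**
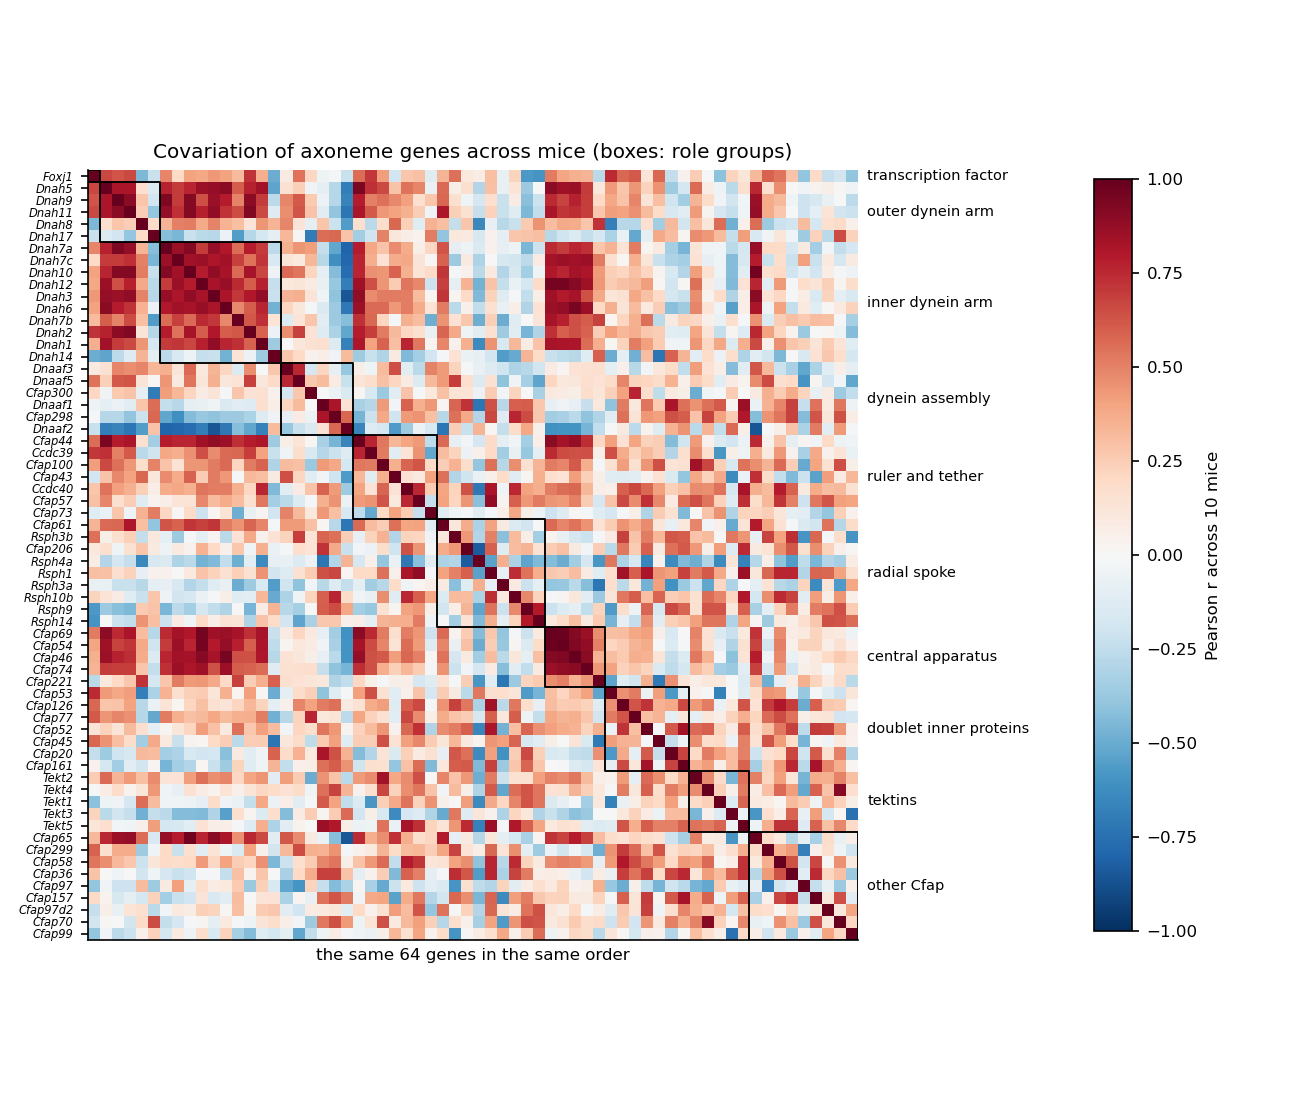
Pearson's r between each pair of the 64 tested axoneme genes across the 10 mice, from -1 (blue) to 1 (red), with boxes around the role groups. Most inner arm chains, Dnah5, Dnah9 and Dnah11 of the outer arm and the central apparatus genes other than Cfap221 form red blocks within and between groups. Dnah14 and Dnah17 stand outside them.

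The genes outside the set whose log2 CPM was most alike to the mean of the standardised axoneme genes over the 10 mice were Drc7 (r 0.936), Dnaic2 (0.934), Synpo2l (0.925), Catip (0.908), Nek5 (0.897), Morn4 (0.893), Ttll9 (0.885), Gm20470 (0.884), Myom1 (0.883) and Ttc25 (0.880). That mean of standardised values was 0.416, 0.105, -0.099, -0.169 and 0.577 in KO replicates 1 to 5 and -0.027, -0.001, -0.814, -0.447 and 0.46 in WT replicates 1 to 5. KO replicate 5, WT replicate 5 and KO replicate 1 were the highest and WT replicate 3 the lowest, so the genotypes overlapped.

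Other genes of motile cilia were examined beside the axoneme set. Of 52 tested, 0 had an adjusted p under 0.05 by edgeR, 5 were higher and 1 lower in KO mice at an unadjusted p under 0.05, and the median log2 fold change was 0.01. The 5 are 9.62% of the list, near the 8.92% over all tested genes. Spag16, a central pair protein, had 0.32 (adjusted p 0.19), and the dynein light chain gene Dynlt1b had -0.19 (adjusted p 0.201). Of 22 tested regulators of multiciliated cells, Foxj1 not among them, 0 had an adjusted p under 0.05, while 6 (27.3%, against 8.92% of all tested genes) were higher and 1 lower at an unadjusted p under 0.05. The median exon length of these regulators was 5754 bases. The Notch ligand gene Jag1 had 0.27 (adjusted p 0.135), the receptor gene Notch1 0.33 (adjusted p 0.171) and the Notch target Hes1 -0.37 (adjusted p 0.184). Their exon lengths were 5827, 14232 and 2037 bases in that order. Among protein-coding genes outside the axoneme set, 5.46% of those with 3000 to 6000 bases were higher at an unadjusted p under 0.05. The share was 43.0% for those of 12000 bases or more.

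Markers of the cells in the lobe give the background of these values. The 12 ciliated cell markers that are not axoneme genes were present, at a sum of 1930 to 2136 CPM in KO and 2026 to 2261 CPM in WT mice, with 3 of 12 fold changes above 0 and a median of -0.05. Their median exon length was 1570 bases, and other protein-coding genes of 1500 to 3000 bases had a median fold change of -0.07, with 27.7% above 0. Of these 1, Cdhr4, had an unadjusted p under 0.05 and ranges that did not overlap, higher in KO mice. The 8 club cell markers had 0 fold changes above 0 and a median of -0.15, with 3 lower at an unadjusted p under 0.05, and the 6 alveolar type 2 markers a median of -0.16, with 4 lower. The median exon length was 1815.5 bases for the club and 3108 bases for the alveolar type 2 markers. Other protein-coding genes of 3000 to 6000 bases had a median of -0.0061, and those under 1500 bases -0.11. At an unadjusted p under 0.05, 8.04% of all tested genes were lower in KO mice. By the same threshold 1 alveolar type 1 marker (median -0.07) and 1 smooth muscle marker (median -0.09) were lower, and 0 basal (-0.11, with 4 of 7 tested) and 0 mucous and gland markers (0.11) differed. None of the tested markers in these lists had an adjusted p under 0.05 by edgeR. None of the marker lists held a gene at 0 in all mice, and the part of cell composition in the axoneme values was not tested.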

How the data were processed

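Sequencing reads of 10 lung lobes were single reads of 50 bases from stranded mRNA libraries, per the labels' protocols. The authors deposited 1 table of estimated counts per gene, not normalized. STAR 2.6.0, Salmon 0.9.1, FastQC, MultiQC and the builds mm10 and GRCm38 are named per the submitters' processing notes, without roles. The annotation, filters and counting strand are not given in the sources used here. Of non-zero values 30.1% were more than 0.01 from a whole number. All 10 columns belonged to 1 sample each.

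Identifiers were matched to GENCODE M21 (47281 of 47333), which gave symbols, GRCm38 coordinates and the union of exon lengths. The 52 without a match held 0.00668% of counts. Estimated counts were rounded, filtered by filterByExpr with genotype as group (minimum count 10, minimum total 15), scaled by TMM and fitted with edgeR 4.0.16 in R 4.3.3 (quasi-likelihood, robust, sex as covariate). Tests were two-sided, with Benjamini-Hochberg adjustment over all 18024 genes and a threshold of 0.05. The common biological coefficient of variation was 9.69%. A count of 3, taken as the floor, equals 0.104 to 0.143 CPM and covers counting error only. Mice are separate animals by label, and the labels name no litter or sequencing batch.

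Correlations used log2 CPM with a prior count of 2 and permutation tests (NumPy 2.4.6, with ranks by SciPy 1.17.1). Where a mouse was left out, the permutation tests were exact. They were planned with adjustment over the axoneme genes alone, and are given with adjustment over all genes tested. The planned relation with Krt5 was left out because that gene did not pass the filter, which left 7. Alternatives used DESeq2 1.42.0, limma 3.58.1, other scalings and filters, females alone, other covariates and leaving out each mouse. The offset for exon length (lowess, span 0.3) was added after seeing the data. Scripts were tested on simulated data. There the edgeR fit called 2% of genes with a log2 difference of 0.2 between genotypes at an adjusted p under 0.05. It called 28% of those with 0.3, 60% with 0.5 and 82% with 1, so most differences of 0.2 or 0.3 were not called.

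The genes, role groups and lists were chosen with earlier results of these data known. Named genes were Foxj1, Ccdc39, Ccdc40, in each role group the 2 with the highest level per length and the one with the smallest p, genes with ranges that do not overlap, the 3 largest fold changes in each direction, the 3 highest and lowest correlations with Foxj1, the 10 genes most alike to the set's mean, and the 5 smallest p among the other cilia genes and regulators. Other genes were named after their values were seen.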

Additional observations from a re-analysis of the deposited data

Results flagged for a closer look

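In each named axoneme gene and genotype, the highest and the lowest of the 5 mice were examined for a gap to the others. Of 62 such sets, 6 held a mouse that stood apart, where a rate of 1 in 20 would give 3.1 sets. Many of these genes were named for their values in the same mice, and the sets share libraries, so that rate is a guide only. Foxj1 read 179.2 CPM in KO replicate 1 and 125.4 to 134.2 CPM in the other KO mice, and Cfap53 in the same mouse read 10.71 CPM against 7.483 to 8.375 CPM. Tekt1 read 18.77 CPM in KO replicate 5 against 15.93 to 16.71 CPM, and Cfap298 read 25.09 CPM in KO replicate 2, below the other KO mice at 28.33 to 29.56 CPM. Among WT mice, Dnah7a read 5.559 CPM in replicate 4 against 4.7 to 4.86 CPM, and Rsph14 read 5.145 CPM in replicate 5 against 3.455 to 3.722 CPM.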

How the results depend on the processing

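The count of 0 axoneme genes called between genotypes, and of 0 between sexes, held under the other settings run except the DESeq2 Wald test. That test called 2 between genotypes (Dnah10, Foxj1) and 1 between sexes (Foxj1). Over all genes it called 346 between genotypes, against 4 by edgeR, and 436 between sexes, against 105 by edgeR. The cause was not tested. With the offset for exon length the median of the heavy chains was 0.074 and 4 axoneme genes had an unadjusted p under 0.05, as given above. Signs turned for 8 named genes close to 0. Ccdc40 read -0.0012 with no filter on low counts, -0.081 in females alone and -0.025 with the length offset, and Cfap126 read -0.012 in females alone. Dnah14 read 0.029 with no sex covariate and 0.087 in females alone. With the length offset Cfap36 read 0.031, Cfap43 -0.036 and Rsph1 0.049. Leaving out 1 mouse at a time gave -0.0803 to 0.069 for Ccdc40, -0.011 to 0.096 for Cfap126, -0.064 to 0.0104 for Cfap20, -0.081 to 0.015 for Cfap36, -0.016 to 0.057 for Cfap43, -0.084 to 0.088 for Dnah14, -0.14 to 0.049 for Rsph1 and -0.0087 to 0.11 for Tekt2. The causes were not tested. Bpifb1 kept its direction in all 19 alternatives, from -6.97 to -6.35, with an adjusted p under 0.05 in 10. No paired analysis was possible because the labels number no replicates within the groups, and the numbers used here only name the mice. The females alone include KO replicate 5, whose Xist level goes against its label. The lowest genes, such as Tekt3 at 0.474 to 0.908 CPM, rest on few counts.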
